A study of Mus musculus with 22 samples.

Results

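Ch25h, which encodes cholesterol 25-hydroxylase, was measured in the mouse hypothalamus together with the genes that make, modify, sense and export oxysterols after the triterpenoid celastrol or its vehicle dimethyl sulfoxide (DMSO). A total of 9 genes were chosen: Ch25h, Cyp7b1, Cyp27a1, Cyp46a1, Hsd3b7, Gpr183, Nr1h2, Nr1h3 and Abca1. They were selected on the celastrol minus DMSO difference of Ch25h in these same arrays and on their place in its pathway, so that the celastrol minus DMSO values of the members are given as a description, with no test. The array annotation names exactly 1 probe set for each of 8 of the 9 genes, and these are 8 of the 23492 probe sets in the table. Nr1h2 has no probe set named for it alone, and no value is given for it.

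The hypothalami came from lean C57BL/6J males aged 8 weeks that had eaten normal chow for 2 weeks; the labels give no genetic modification. Celastrol mice were taken after 6 h (4 arrays), 1 day (3 arrays) or 4 days (3 arrays) of intraperitoneal celastrol dissolved in DMSO, and DMSO mice after 6 h, 1 day or 4 days of DMSO (4 arrays each). The labels name 250 µg per kg for celastrol at 6 h. For celastrol at 1 day and 4 days they name only a volume of 100 µl, so the dose is unknown here. Every group received DMSO, for which the labels give 25 µl per day. Each of the 22 arrays is labelled as a biological replicate, and p-values below measure the spread between these arrays. The values are log2 intensities, on which a difference of 1 is a doubling. Array medians were 8.58 to 8.66, and arrays of a group correlated at 0.994 to 0.998 on average. Of 14 markers of hypothalamic neurons, 11 were above the array median in all 12 DMSO arrays, among them Hcrt, Pmch, Oxt and Avp; Crh was above it in 0 of 12. Because the tissue was measured in bulk, a change in the number of cells that express a gene and a change in RNA per cell cannot be told apart.

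Oxysterols are oxidised forms of cholesterol that carry signals and mark cholesterol for removal. Cholesterol 25-hydroxylase, which macrophages and microglia induce on inflammatory stimulation and in response to interferon, makes 25-hydroxycholesterol. That oxysterol activates the liver X receptors (LXR), holds back the transcription factor SREBP2 and so cholesterol synthesis, and is converted by CYP7B1 into a ligand that attracts immune cells through the receptor GPR183. In neurons CYP46A1 makes the oxysterol through which the brain disposes of most of its surplus cholesterol.

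Ch25h lies on chromosome 19 of mouse build GRCm38.p6, at chr19:34473783-34475148 on the minus strand. Its promoter, from 250 bases before to 50 bases after the start, is shown because Ch25h is the member whose values differed most between the treatments. The RefSeq sequence of chr19:34475099-34475398 reads, in the gene's direction, as follows, with a cyclic AMP response element in capitals.
Ch25h promoter: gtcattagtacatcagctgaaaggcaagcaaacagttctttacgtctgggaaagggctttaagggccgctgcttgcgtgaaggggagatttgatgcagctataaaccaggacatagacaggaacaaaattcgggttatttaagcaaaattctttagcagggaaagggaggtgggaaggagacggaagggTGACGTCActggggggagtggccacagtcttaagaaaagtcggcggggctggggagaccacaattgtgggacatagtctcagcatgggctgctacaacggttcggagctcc
Both strands were searched for 7 short motifs and for the LXR element described further on. The cyclic AMP response element (TGACGTCA) lies 61 to 54 bases before the start and reads the same on both strands. It is present in 1.79% of the 32851 promoter windows of this length, that is in 588. A TATA box (TATAAA, in 13.6% of windows) lies 151 to 146 bases before the start. The window holds no match to an AP-1 site (TGANTCA, in 7.81% of windows), an E-box (CACGTG, 7.15%), a STAT site (TTCNNNGAA, 8.30%), an NF-kB site (4.51%) or an interferon-stimulated response element (3.44%). A match describes letters and is neither a measured binding site nor a cause.

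Ch25h was higher in celastrol than in DMSO hypothalamus at 1 day and at 4 days, in every celastrol array. At 1 day its log2 intensity was 7.42, 7.37 and 7.52 in the celastrol arrays, against 6.69, 6.54, 6.50 and 6.67 in the DMSO arrays. At 4 days it was 7.57, 7.72 and 7.23 in the celastrol arrays, against 6.55, 6.55, 6.67 and 6.45 in the DMSO arrays. The groups did not overlap at either time: the lowest celastrol array stood 0.68 above the highest DMSO array at 1 day and 0.56 above it at 4 days. At 6 h the celastrol arrays read 6.58, 6.75, 7.22 and 6.85, and the DMSO arrays 6.44, 6.56, 6.72 and 6.73. Here the groups overlapped; celastrol replicate 1 lay below the DMSO mean and replicate 3 was the highest of the 8.

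**Figure D1:**
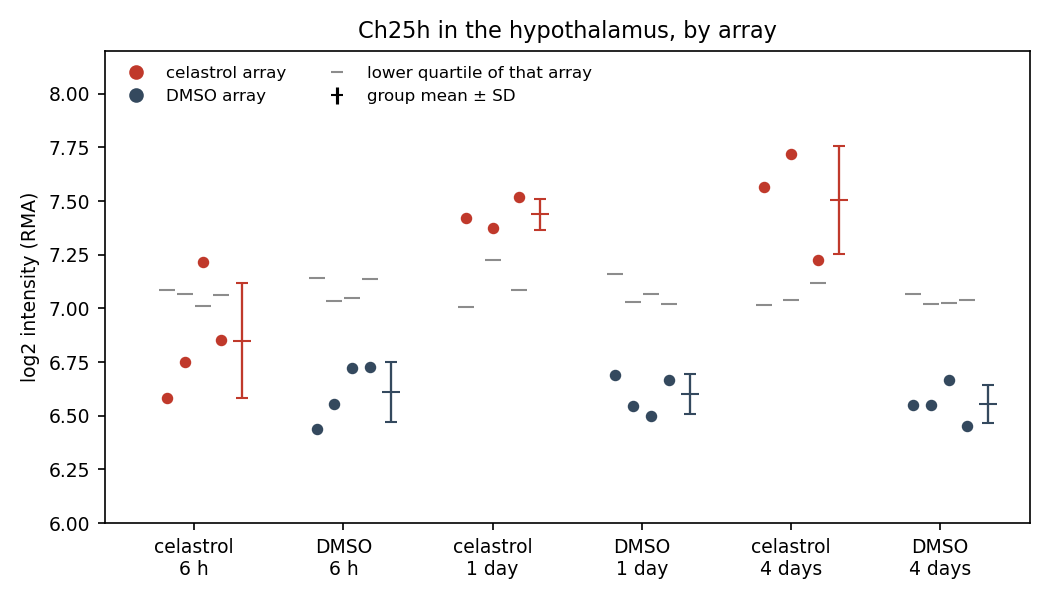
Ch25h log2 intensity (y axis) in each array, by treatment and time (x axis), with celastrol arrays in red, DMSO arrays in dark blue, the group mean ± SD beside them and each array's lower quartile as a grey dash. All celastrol arrays of 1 day and 4 days stand above their array's lower quartile, and all 12 DMSO arrays below it.

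The mean log2 intensity of Ch25h was 6.85 ± 0.27 in celastrol and 6.61 ± 0.14 in DMSO hypothalamus at 6 h (SD, n = 4 each). At 1 day it was 7.44 ± 0.07 in celastrol (n = 3) and 6.60 ± 0.09 in DMSO hypothalamus (n = 4). At 4 days it was 7.50 ± 0.25 in celastrol (n = 3) and 6.55 ± 0.09 in DMSO hypothalamus (n = 4). The 3 DMSO means lay within 0.06 of each other, whereas the celastrol means of 1 day and 4 days were higher than that of 6 h. The celastrol minus DMSO difference was 0.24 on the log2 scale at 6 h (SE 0.11, 95% interval 0.01 to 0.47), or 1.18-fold. It was 0.84 at 1 day (SE 0.12, 95% interval 0.59 to 1.09), or 1.79-fold. It was 0.95 at 4 days (SE 0.12, 95% interval 0.70 to 1.20), or 1.93-fold, and 0.68 on the average of the 3 times (SE 0.07). The intervals of 1 day and 4 days overlap, and the difference between these times was not tested.

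In the limma fit over the whole table, at a Benjamini-Hochberg adjusted p under 0.05, Ch25h was the 1 probe set called of 23492 at 1 day (0.00426%), 1 of the 2 called at 4 days (0.00851%) and 1 of the 8 called on the average (0.0341%). None was called at 6 h (0%), where 923 probe sets had an unadjusted p under 0.05. Nothing is read from these counts for Ch25h, since it was chosen on this contrast. The share of probe sets with every celastrol array above every DMSO array was 1.39% at 6 h, 2.1% at 1 day and 3.89% at 4 days; with every celastrol array below, it was 1.2%, 3.11% and 2.15%. Without 1 of celastrol 1 day replicates 1, 2 or 3 (differences 0.85, 0.87 and 0.80) or DMSO 1 day replicates 2, 3 or 4 (0.82, 0.80 and 0.86), Ch25h was no longer called at 1 day, nor at 4 days without celastrol 4 days replicate 1 (0.92) or replicate 2 (0.84). The call was also lost at 1 day with quantile normalization again (difference 0.80) and at 4 days in a fit of only the groups compared (0.95), and filters on level left Ch25h untested. Without celastrol 6 h replicate 3, the 6 h difference was 0.12.

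Ch25h is a dim probe set. It was below the array median in all 22 arrays, and above the lower quartile of its array in 7 arrays, namely celastrol 6 h replicate 3 and the 6 celastrol arrays of 1 day and 4 days. Its mean over the 12 DMSO arrays was 6.59 ± 0.10 (SD). No detection call was used here, so whether the DMSO values lie above the background of the array was not tested, and neither was whether the fold changes are compressed by it.

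Among the enzymes that act beside Ch25h, the celastrol arrays overlapped the DMSO arrays at every time. Cyp7b1 (chromosome 3), the oxysterol hydroxylase that turns 25-hydroxycholesterol into the GPR183 ligand, ranged in the celastrol arrays from 8.66 to 8.76 at 6 h, 8.68 to 8.92 at 1 day and 8.72 to 8.90 at 4 days. Its DMSO arrays ranged from 8.64 to 8.86, 8.77 to 8.87 and 8.68 to 8.87 at the same times. The differences were -0.01, 0.01 and 0.01 (SE 0.06 each), with 95% intervals of -0.14 to 0.12, -0.12 to 0.15 and -0.13 to 0.14. Cyp27a1 (chromosome 1), the mitochondrial sterol hydroxylase, differed by 0.02 at 6 h, -0.03 at 1 day and 0.10 at 4 days (SE 0.06, 0.07 and 0.07). Its 4 day arrays read 8.68, 8.82 and 8.89 in celastrol, against 8.67, 8.59, 8.70 and 8.80 in DMSO hypothalamus, so that 2 of 3 celastrol arrays stood above all DMSO arrays and the groups overlapped.

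Cyp46a1 (chromosome 12), the neuronal cholesterol hydroxylase, had the narrowest spread within groups of the 8 members. It averaged 10.93 ± 0.08 in celastrol and 10.98 ± 0.03 in DMSO hypothalamus at 6 h (SD, n = 4 each), and 10.99 ± 0.02 in celastrol (n = 3) and 10.95 ± 0.04 in DMSO hypothalamus (n = 4) at 1 day. At 4 days it read 11.13, 11.02 and 11.03 in the celastrol arrays, against 11.03, 11.04, 11.04 and 11.11 in the DMSO arrays. The treatments overlapped at each time, with differences of -0.05, 0.04 and 0.00 on the log2 scale (SE 0.04, 0.05 and 0.05). Hsd3b7 (chromosome 7), an enzyme of bile acid synthesis that also breaks down the GPR183 ligand, differed by 0.03 at 6 h, 0.06 at 1 day and 0.04 at 4 days (SE 0.07 each). All 4 of its celastrol arrays at 6 h (8.28 to 8.33) stood above the DMSO mean of 8.27, yet they overlapped the DMSO arrays (8.23 to 8.30).

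The receptors gave values of both signs. Gpr183 (chromosome 14), the oxysterol receptor of B cells, dendritic cells and other immune cells, read 7.10, 7.14, 7.24 and 7.13 in the celastrol arrays at 6 h, against 7.17, 6.88, 7.01 and 7.09 in the DMSO arrays. Its difference was 0.12 at 6 h (SE 0.08, 95% interval -0.05 to 0.28), -0.03 at 1 day and -0.08 at 4 days (SE 0.09 each), with overlapping groups at each time. Gpr183 was below the array median in all 22 arrays and above the lower quartile in 12. Nr1h3 (chromosome 2), which encodes LXR alpha, differed by 0.04, 0.00 and 0.01 at 6 h, 1 day and 4 days (SE 0.09 each). It ranged in the celastrol arrays from 7.56 to 7.87 at 6 h, 7.63 to 7.74 at 1 day and 7.48 to 7.66 at 4 days, inside or across DMSO ranges of 7.52 to 7.79, 7.53 to 7.91 and 7.41 to 7.69.

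Abca1, the membrane transporter that passes cholesterol to apolipoproteins and a standard target of LXR, is shown with its promoter because the oxysterol receptor LXR is known to act on it directly. It lies on chromosome 4 on the minus strand, and the RefSeq sequence of chr4:53159846-53160145 (GRCm38.p6) follows in the gene's direction, with the closest match to an LXR element in capitals.
Abca1 promoter: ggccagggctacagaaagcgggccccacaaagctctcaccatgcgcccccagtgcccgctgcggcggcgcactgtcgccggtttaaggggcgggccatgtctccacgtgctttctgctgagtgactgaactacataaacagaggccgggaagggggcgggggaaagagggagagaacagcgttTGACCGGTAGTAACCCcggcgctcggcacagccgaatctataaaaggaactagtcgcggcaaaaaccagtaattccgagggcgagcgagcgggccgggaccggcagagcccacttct
An LXR element of the DR4 kind was searched on both strands as 2 copies of AGGTCA separated by 4 bases, and the match in capitals, on the opposite strand and 67 to 52 bases before the start, has 3 mismatches. Such a match is present in 21.9% of the 32851 windows. Abca1 log2 intensity ranged in the celastrol arrays from 9.85 to 9.96 at 6 h, 9.86 to 9.92 at 1 day and 9.88 to 9.96 at 4 days. In the DMSO arrays it ranged from 9.77 to 10.03, 9.72 to 9.99 and 9.75 to 9.93. The differences were 0.04, 0.03 and 0.04 (SE 0.06 each), with 95% intervals of -0.09 to 0.16, -0.10 to 0.16 and -0.10 to 0.17. All celastrol arrays of 4 days stood above the DMSO mean of that time, and the groups overlapped at each time.

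**Figure D2:**
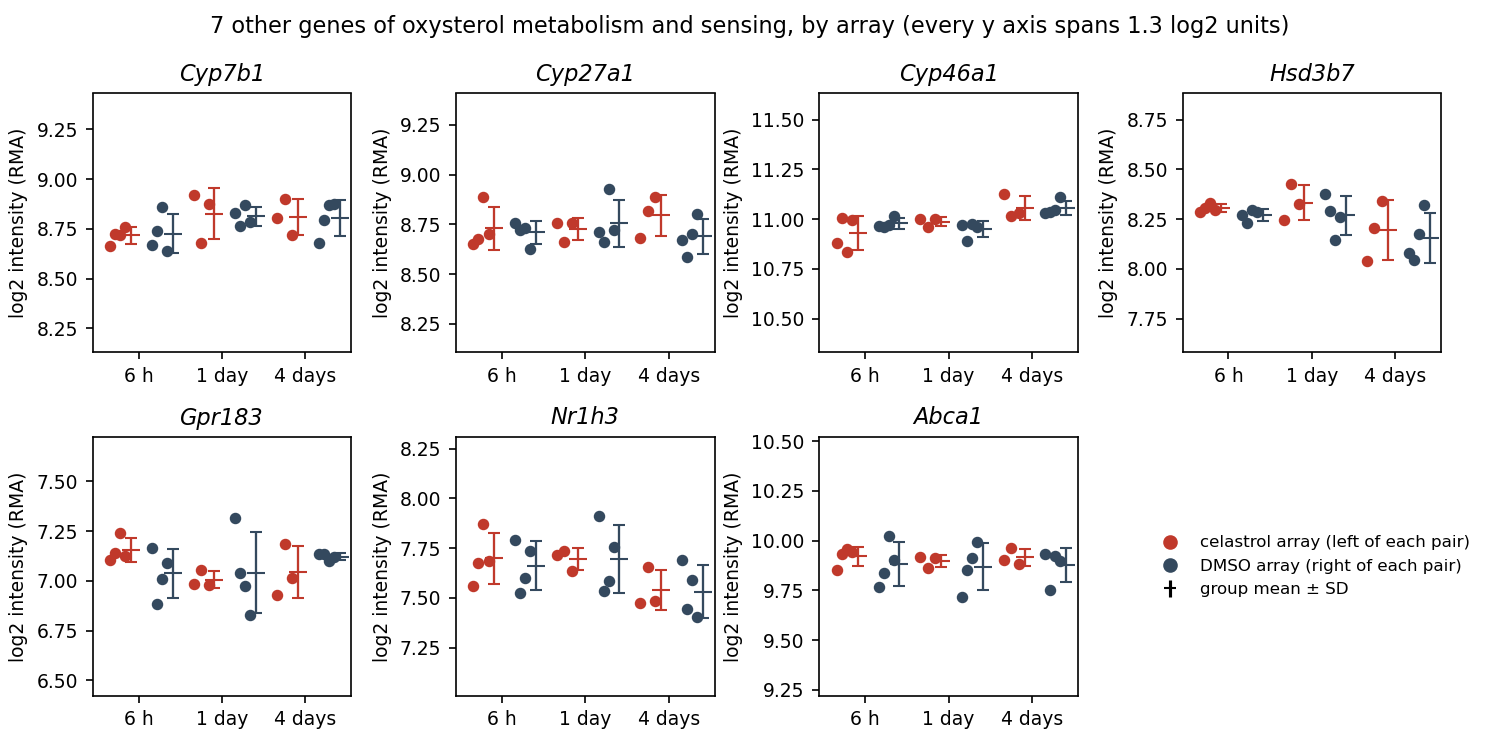
Log2 intensity (y axis) of the 7 other genes in each array at 3 times (x axis), celastrol in red on the left and DMSO in dark blue on the right of each pair, with group mean ± SD; each y axis spans the same range. Celastrol and DMSO arrays overlap for all 7 genes at all 3 times.

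Over the 7 genes other than Ch25h and the 3 times, the 21 differences lay between -0.08 and 0.12 on the log2 scale, and the 95% intervals reached from -0.26 to 0.28, or from 0.837-fold to 1.21-fold. The median difference of the 8 members was 0.04 at 6 h, 0.02 at 1 day and 0.02 at 4 days, against 0.00, 0.00 and 0.01 over all 23492 probe sets. Passing a minimum level did not depend on treatment for Cyp7b1, Cyp27a1, Cyp46a1 and Abca1, which were above the array median in all 22 arrays, while Ch25h, Hsd3b7, Gpr183 and Nr1h3 were above it in 0.

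**Figure D3:**
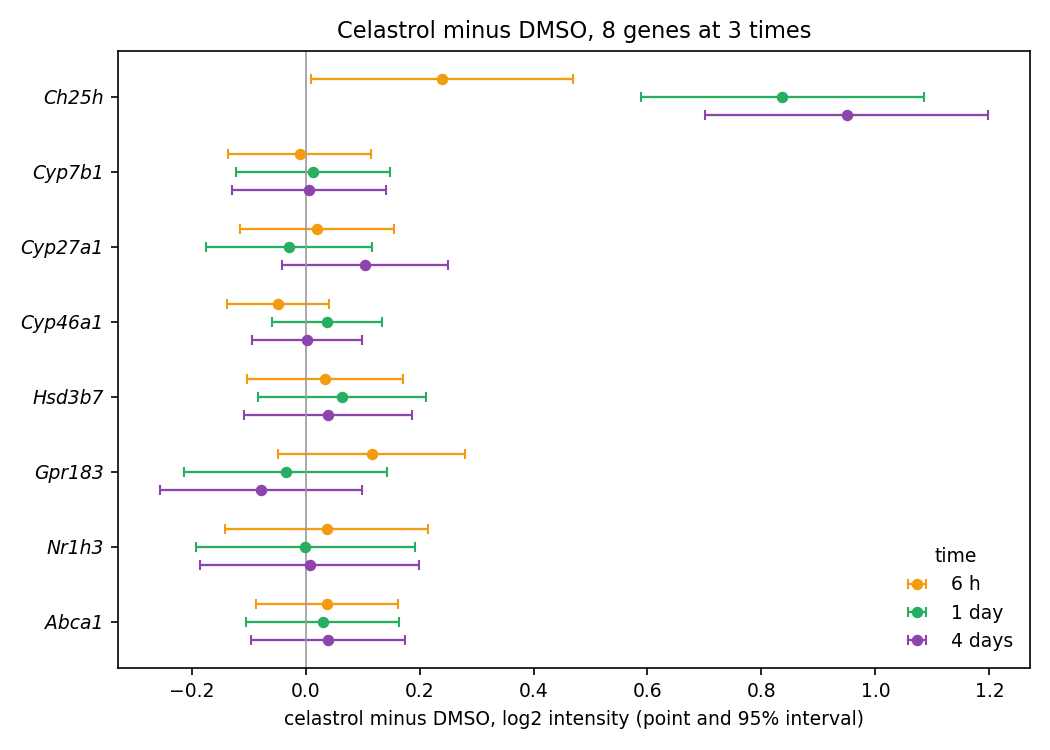
Celastrol minus DMSO in log2 intensity (x axis) for the 8 genes (y axis), with 95% intervals from the limma fit, at 6 h, 1 day and 4 days. Ch25h stands at 0.84 at 1 day and 0.95 at 4 days, and the other 7 genes lie between -0.08 and 0.12.

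The DMSO arrays of different times were compared as a measure of how far the members moved without celastrol; these arrays are also the lower side of the celastrol differences above. The limma fit called 0 of 8 members at 1 day against 6 h, where it called 0 of all probe sets (0%; 2177 had an unadjusted p under 0.05). It called 0 of 8 at 4 days against 6 h, where it called 11 of all (0.0468%; 2808), and 0 of 8 at 4 days against 1 day, where it called 1 (0.00426%; 2321). Of the members, 0, 0 and 1 had an unadjusted p under 0.05. That member was Cyp46a1, which averaged 11.06 in DMSO hypothalamus at 4 days and 10.95 at 1 day, a difference of 0.11 (SE 0.04, limma adjusted p = 0.419) with all 4 later arrays (11.03 to 11.11) above all 4 earlier arrays (10.89 to 10.98). Its 4 day DMSO arrays also stood above all DMSO arrays of 6 h, by 0.08 on average (SE 0.04, limma adjusted p = 0.489). A two-sided exact permutation test gave p = 0.0286 in both comparisons, the smallest that 4 against 4 arrays can give, before any adjustment for the 8 genes and 3 comparisons.

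Nr1h3 averaged 7.53 in DMSO hypothalamus at 4 days and 7.70 at 1 day, a difference of -0.16 (SE 0.09, limma adjusted p = 0.554), and the arrays overlapped. Hsd3b7 averaged 8.16 at 4 days and 8.27 at 6 h, a difference of -0.12 (SE 0.07, limma adjusted p = 0.496). Ch25h averaged 6.55 in DMSO hypothalamus at 4 days and 6.61 at 6 h, a difference of -0.06 (SE 0.11, limma adjusted p = 0.867), and -0.01 at 1 day against 6 h. The DMSO differences of the 8 members between times thus lay between -0.16 and 0.11, a range that holds all celastrol minus DMSO differences of the 7 genes other than Ch25h but for the 0.12 of Gpr183 at 6 h.

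The genes around this pathway were read from 5 lists with none of the members in them. The limma fit called 0 of their 107 measured genes at 6 h, at 1 day, at 4 days, on the average and between DMSO times. An unadjusted p under 0.05 was reached by 3 of the 107 at 6 h, 4 at 1 day, 2 at 4 days and 4 on the average, against 3.93%, 5.40%, 4.06% and 3.67% of all 23492 probe sets. Between DMSO times the count was 14 of 107 at 1 day against 6 h, 14 at 4 days against 6 h and 11 at 4 days against 1 day, against 9.27%, 11.95% and 9.88% of all probe sets. Of the oxysterol and bile acid enzymes, 18 of 20 were measured, and 14 of the 18 were dim, above the array median in fewer than 3 of the 22 arrays. In celastrol 10 were higher and 8 lower at 6 h, 7 and 11 at 1 day, and 9 and 9 at 4 days. Their median difference was 0.01, -0.06 and 0.00. Sult2b1, the sulfotransferase that inactivates oxysterols, averaged 7.84 ± 0.11 in celastrol and 7.98 ± 0.06 in DMSO hypothalamus at 4 days (SD, n = 3 and 4). It lay below the DMSO mean of its time in all 10 celastrol arrays, by 0.12 on average (SE 0.04, limma adjusted p = 0.966). Hsd17b4, a peroxisomal enzyme of side chain shortening, differed by 0.11 at 6 h and by -0.12 at 1 day (limma adjusted p = 0.999 and 0.887).

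Of the genes for oxysterol binding, sterol transport and receptors, 33 of 36 were measured, and the median difference was 0.03 at 6 h, 0.01 at 1 day and 0.00 at 4 days. Stard5, a carrier protein that binds 25-hydroxycholesterol, averaged 9.21 ± 0.05 in celastrol and 9.06 ± 0.08 in DMSO hypothalamus at 6 h (SD, n = 4 each), with no overlap of arrays (0.14, SE 0.05, limma adjusted p = 0.999). Rxra, the partner of LXR, differed by 0.10 at 6 h, and Osbp2, an oxysterol-binding protein, by -0.11 at 4 days (limma adjusted p = 0.999 and 1.00). Of the LXR targets other than Abca1, 17 of 20 were measured, and 10 were higher and 7 lower at 6 h, 12 and 5 at 1 day, and 7 and 10 at 4 days. Mylip, the ubiquitin ligase that removes the LDL receptor, averaged 9.31 ± 0.01 in celastrol and 9.51 ± 0.10 in DMSO hypothalamus at 1 day (SD, n = 3 and 4). No celastrol array reached the lowest DMSO array (-0.19, SE 0.06, limma adjusted p = 0.887). Apoe, the main apolipoprotein of the brain, differed by 0.15 at 6 h (SE 0.07, limma adjusted p = 0.999). Smpdl3a, a phosphodiesterase, differed by -0.17 at 1 day (SE 0.06, limma adjusted p = 0.887). The 17 LXR targets lay between -0.09 and 0.21 at 6 h, between -0.19 and 0.16 at 1 day and between -0.08 and 0.09 at 4 days.

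Of the SREBP2 targets, the genes of cholesterol synthesis and uptake that 25-hydroxycholesterol is known to hold back, 19 of 24 were measured. In celastrol hypothalamus 11 were higher and 8 lower at 6 h, 5 higher and 14 lower at 1 day, and 4 higher and 15 lower at 4 days. Their median difference was 0.02, -0.03 and -0.04 at these times, against 0.00, 0.00 and 0.01 over all probe sets. At each time 0 passed the test, and 1, 1 and 0 had an unadjusted p under 0.05. Between DMSO times, 5 of the list were higher and 14 lower at 4 days against 1 day. The counts were 8 and 11 at 4 days against 6 h, and 13 and 6 at 1 day against 6 h. Whether the counts in celastrol hypothalamus follow from Ch25h was not tested. At 4 days, Sqle, squalene epoxidase, averaged 10.22 ± 0.05 in celastrol and 10.32 ± 0.04 in DMSO hypothalamus (-0.09, SE 0.05, limma adjusted p = 1.00), and Msmo1, a sterol methyl oxidase, differed by -0.10 with no overlap of arrays (limma adjusted p = 1.00). At 1 day, Cyp51 and Idi1, enzymes of the same route, differed by -0.16 and -0.15 (limma adjusted p = 0.887 each).

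Of the interferon-stimulated genes, 20 of 24 were measured, 15 of them above the array median in fewer than 3 of the 22 arrays. Their median difference was 0.03 at 6 h, -0.04 at 1 day and -0.03 at 4 days, with 15, 8 and 9 of 20 higher. Oas1a, an antiviral oligoadenylate synthetase, averaged 7.53 ± 0.11 in celastrol and 7.13 ± 0.16 in DMSO hypothalamus at 4 days (SD, n = 3 and 4), and did not overlap (0.40, SE 0.10, limma adjusted p = 0.289). Psmb8, an immunoproteasome subunit, differed by 0.22 at 4 days (limma adjusted p = 1.00), Ifit2 by 0.21 at 6 h (0.999) and Ifit3 by -0.16 at 1 day (0.887).

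**Figure D4:**
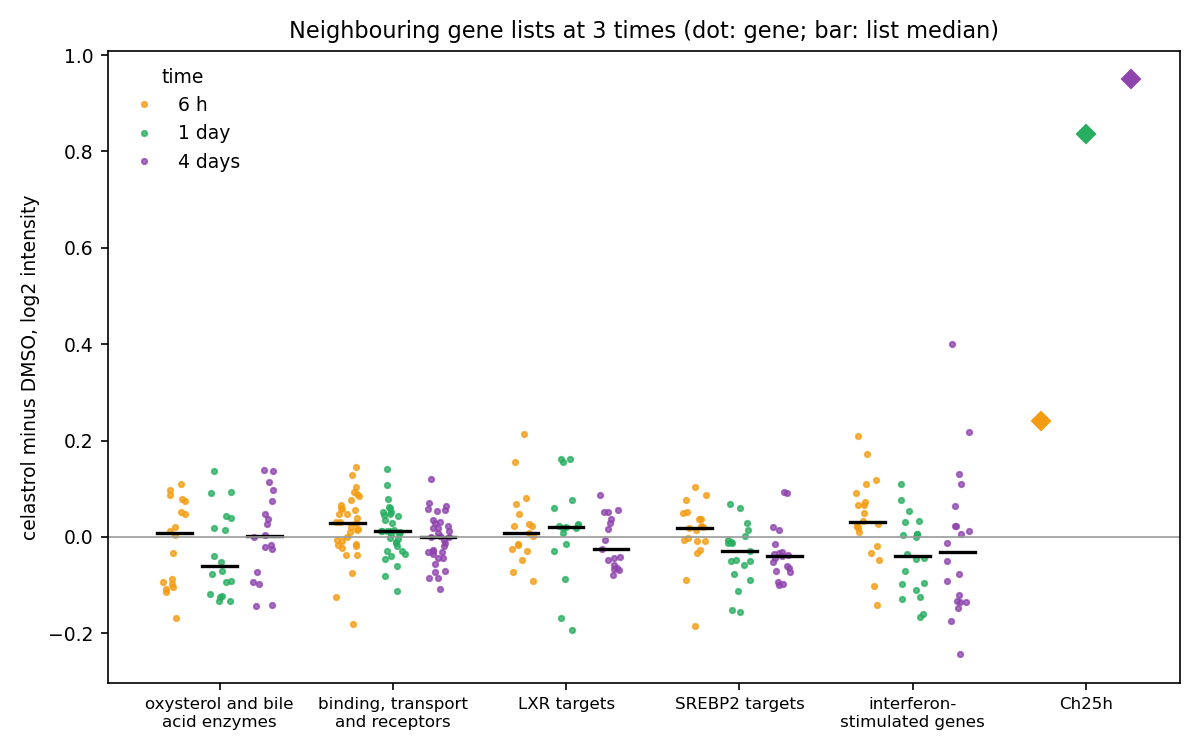
Celastrol minus DMSO in log2 intensity (y axis) for each measured gene of the 5 lists (x axis) at 6 h, 1 day and 4 days, with a bar at each list's median and Ch25h as diamonds on the right. The list medians lie between -0.06 and 0.03, and no list gene reaches the Ch25h values of 1 day and 4 days; the highest is Oas1a at 0.40.

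Markers of microglia, macrophages, blood cells and vessels were read beside Ch25h. At 4 days 11 of 14 microglial markers were higher in celastrol, with a mean difference of 0.14. The mean of the list was 9.002 to 9.070 in the celastrol arrays, against 8.86 to 8.95 in the DMSO arrays. At 1 day, where Ch25h differed by 0.84, 5 of 14 were higher, the mean difference was -0.03, and the list stood at 8.86 to 8.90 in the celastrol arrays, against 8.88 to 8.98 in the DMSO arrays. Endothelial markers were higher for 8 of 11 genes at 4 days (mean difference 0.08) and for 4 of 11 at 1 day (-0.04). Markers of pericytes and vascular smooth muscle were higher for 7 of 8 genes at 4 days (0.09) and for 2 of 8 at 1 day (-0.06). Markers of perivascular and border macrophages were higher for 7 of 8 genes at 1 day (0.05) and 6 of 8 at 4 days (0.03), and 0 of the 8 was above the array median in all DMSO arrays. Of the markers of neutrophils, lymphocytes and red cells, 10 of 11 were higher at 1 day (0.11) and 5 of 11 at 4 days (0.00). Of these 11 as well, 0 was above the array median in all DMSO arrays. Celastrol 1 day replicate 2 had the highest lower quartile of the 22 arrays, 7.23, and its part in such dim values was not tested. The limma fit called 0 of the markers in these lists at either time. An unadjusted p under 0.05 was reached at 4 days by 6 microglial and 4 endothelial markers, and at 1 day by 1 microglial and 3 endothelial markers. It was reached by 2 macrophage markers at 4 days and 1 at 1 day, and by 1 and 0 markers of pericytes and vascular smooth muscle. For neutrophils, lymphocytes and red cells the counts were 0 at 4 days and 3 at 1 day. Over all probe sets that share was 4.06% at 4 days and 5.40% at 1 day. The part of these cell types in the Ch25h values was not tested.

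Over the 22 arrays, Pearson's r of Ch25h with the other 7 members lay between -0.09 (Gpr183) and 0.30 (Abca1), and the r of deviations from the group means between -0.14 (Cyp46a1) and 0.52 (Nr1h3). Among 9275 genes above the median level, the 8 with the highest r were Acer2 (0.84), Cd34 (0.74), Nfkbia (0.74), Adamts9 (0.73), Vcam1 (0.73), Dclre1b (0.73), Cyyr1 (0.73) and Kbtbd11 (0.71). The points share treatment, time and array, and 7 celastrol arrays stand apart in Ch25h, at 7.22 and higher against at most 6.85 in the rest, so these values are a description, with no test. Acer2, an alkaline ceramidase, kept an r of 0.80 without the 2 arrays farthest from the Ch25h median, celastrol 4 days replicates 1 and 2, and its r of deviations from the group means was 0.63. For Nfkbia, the inhibitor of NF-kB, the r of deviations was 0.22, and for Vcam1, an endothelial adhesion molecule, 0.27. It was 0.59 for Kbtbd11, 0.58 for Cyyr1, 0.45 for Dclre1b, 0.42 for Cd34 and 0.27 for Adamts9. Acer2 averaged 8.73 ± 0.28 in celastrol and 8.49 ± 0.12 in DMSO hypothalamus at 6 h (SD, n = 4 each). It read 8.81 to 8.91 in celastrol and 8.26 to 8.70 in DMSO hypothalamus at 1 day, and 8.83 to 8.97 in celastrol and 8.24 to 8.46 in DMSO hypothalamus at 4 days, so that the groups overlapped at 6 h and at neither later time. Nfkbia differed from Ch25h at 6 h, where it stood at -0.15, against 0.36 at 1 day and 0.40 at 4 days. The lowest r were those of Smtn (-0.72), a smooth muscle protein, Tom1 (-0.66), Rpl26 (-0.65) and Rex1bd (-0.64).

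**Figure D5:**
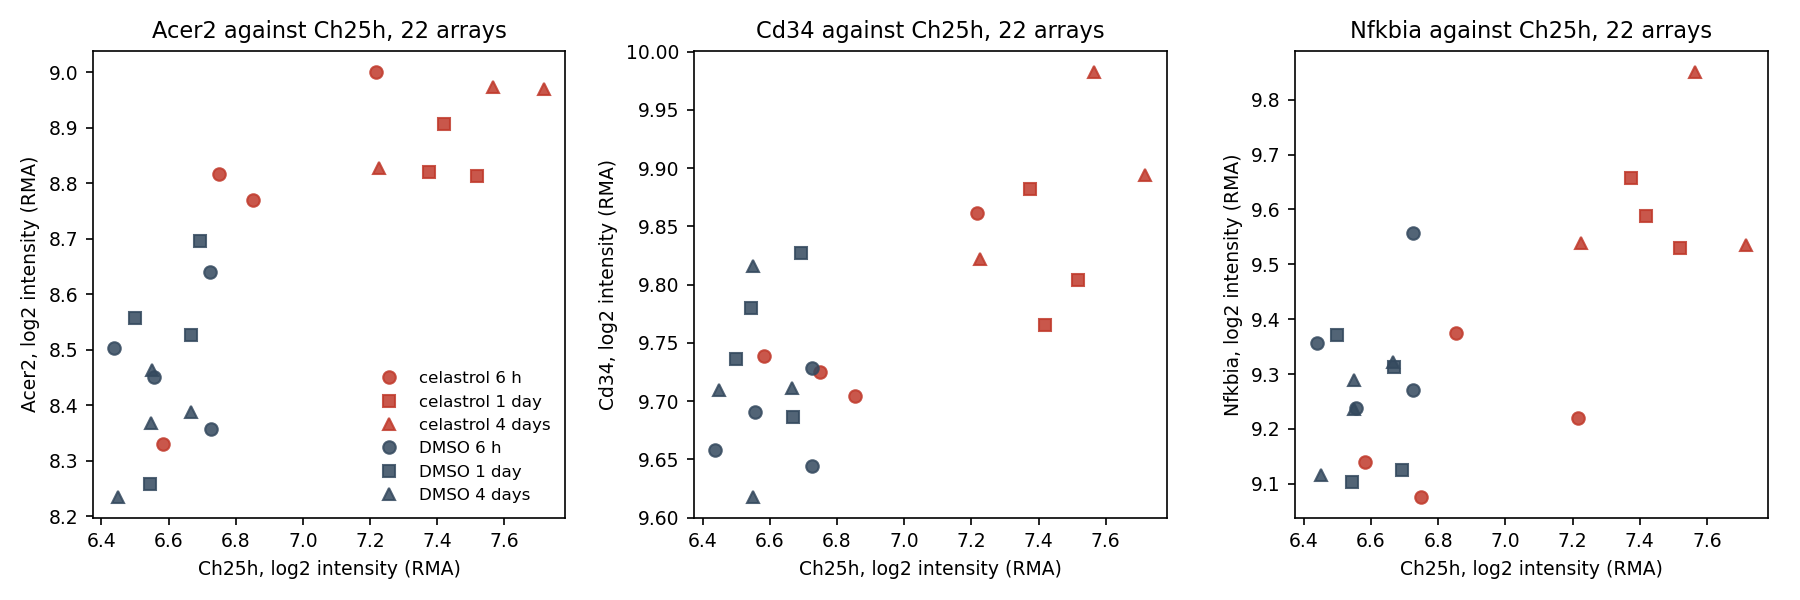
Log2 intensity of Acer2, Cd34 and Nfkbia (y axes) against that of Ch25h (x axis) in the 22 arrays, celastrol in red and DMSO in dark blue, with circles for 6 h, squares for 1 day and triangles for 4 days. The celastrol arrays of 1 day and 4 days lie to the right, and for Acer2 celastrol 6 h replicate 3, with Ch25h at 7.22, is the highest.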

How the data were processed

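Hypothalamic RNA was hybridised to 22 Affymetrix arrays, and the authors deposited log2 values from RMA, per the submitters' processing notes, which give no version here. Values ran from 3.83 to 15.2; 0 columns belonged to no sample. The platform annotation gave 1 symbol to 20228 probe sets, several to 1399 and none to 1865; only the first kind was named. Chromosomes, positions and promoters came from RefSeq tables of GRCm38.p6. The table held a promoter window for 8 of the 9 members, not for Cyp7b1.

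Groups were read from the labels. With limma 3.58.1 (R 4.3.3), lmFit estimated 6 group means for all 23492 probe sets without a filter and eBayes moderated the variances, with 16 residual and 4.29 prior degrees of freedom and a median residual SD of 0.099. Calls are at a two-sided Benjamini-Hochberg adjusted p under 0.05 over all probe sets, and intervals are at 95%. Exact tests used scipy 1.17.1, and figures matplotlib 3.10.9 with Python 3.11.15. Arrays have no read depth; their number limits the precision.

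The members and lists were chosen with earlier results of these data known. Named from each list were the 2 genes with the smallest p in each celastrol comparison, of which some are given; genes most like Ch25h were the 8 highest and 4 lowest by r and the 8 highest by r of deviations, among genes with 1 symbol and above the median level, predicted and non-coding genes left out. For a gene with several probe sets the one with the highest mean was used. Same-numbered celastrol and DMSO arrays did not correlate throughout, so replicate numbers were not treated as pairs.

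Alternatives were 1 probe set a gene, filters on level, quantile normalization again, median centring, limma-trend, array weights, a robust fit, the replicate number as a block, only the groups compared, and leaving out each array. The fit was tested on simulated data, 200 of 23492 probe sets changed. For celastrol at 6 h it called 40.9% of changes of 0.25, 91.6% of 0.5 and 99.7% of 1 on the log2 scale. At 1 day it called 31.0%, 86.6% and 100%, and at 4 days 28.4%, 84.5% and 99.7%. The simulated noise was independent between probe sets, and the fit of the real arrays called 0, 1 and 2 probe sets at these times. With so few calls the adjustment needs a smaller unadjusted p, so these shares do not give the power in the real arrays.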

Additional observations from a re-analysis of the deposited data

How the results depend on the processing

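The Ch25h difference kept its sign in all 30 alternatives at each time, with 0.12 to 0.33 at 6 h, 0.80 to 0.93 at 1 day and 0.84 to 1.09 at 4 days. It was called in 0, 23 and 27 of them. Ch25h was chosen on this contrast, so these calls are a description and no test of it. Filters on level (above the array median in at least 3 or 11 arrays) removed Ch25h. The count of all probe sets called, 1 at 1 day, 2 at 4 days, 8 on the average, 11 for DMSO 4 days against 6 h and 1 for DMSO 4 days against 1 day, moved as follows. With the 3 and 11 array filters it was 0 and 0 at 1 day, 0 and 0 at 4 days, 53 and 56 for DMSO 4 days against 6 h and 69 and 69 for DMSO 4 days against 1 day; the 11 array filter gave 0 on the average. With quantile normalization again it was 0 at 1 day, 1 at 4 days and 0 for DMSO 4 days against 1 day. Median centring gave 1 at 4 days, 22 for DMSO 4 days against 6 h and 0 for DMSO 4 days against 1 day. Limma-trend gave 5 at 4 days and 51 and 55 for DMSO 4 days against 6 h and 1 day. Array weights, whose estimation stopped before it converged, gave 1151 at 1 day, 10 at 4 days, 18 on the average and 63 and 3 for DMSO 4 days against 6 h and 1 day; they called 2 oxysterol and bile acid enzymes, 1 gene of binding and transport, 2 LXR targets and 1 SREBP2 target at 1 day. Only the groups compared gave 0 at 4 days and 0 in both DMSO comparisons; no such fit exists for the average. With 1 probe set a gene, 1 was called for DMSO 4 days against 6 h. The replicate number as a block gave 3 at 1 day, 1 at 4 days and 7 for DMSO 4 days against 6 h. Same-numbered arrays correlated at 0.00 to 0.36 at 6 h, -0.48 to 0.02 at 1 day and -0.13 to -0.03 at 4 days. Differently numbered arrays correlated at -0.27 to 0.19 at 6 h, -0.31 to 0.48 at 1 day and -0.14 to 0.17 at 4 days. The 0.48 was that of celastrol 1 day replicate 2 with DMSO 1 day replicate 1. These arrays correlated with their own groups at 0.9945 and 0.9951 on average, near the low end of the 22. Pairing was thus not seen at every time, and whether the numbers pair the arrays of 6 h was not settled. Leaving out 1 array gave 0 to 2 at 1 day, 0 to 5 at 4 days, 3 to 10 on the average, 0 to 65 for DMSO 4 days against 6 h and 0 to 2 for DMSO 4 days against 1 day. The cause of these moves was not tested.

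Celastrol minus DMSO differences of each of the 7 genes other than Ch25h turned their sign in some alternatives at 1 or more times, none of them called. On the average of the 3 times this was so in 11 of 31 alternatives for Cyp7b1, 10 of 31 for Cyp46a1, 11 of 29 for Gpr183 and 4 of 29 for Nr1h3. It was so in 0 for Cyp27a1, Hsd3b7 and Abca1. The DMSO differences between times that turned their sign were near 0, none of them called. For Ch25h at 1 day against 6 h, quantile normalization gave 0.00659 (leaving out 1 array, -0.0678 to 0.0281). For Cyp7b1 at 4 days against 1 day it gave 0.000748 (-0.0316 to 0.0322). For Gpr183 at 1 day against 6 h, centring gave -0.0183 and weights -0.0910 (-0.0887 to 0.0741). For Nr1h3 at 1 day against 6 h weights gave -0.0346 (-0.0387 to 0.0874). For Abca1 weights gave 0.0336 at 1 day against 6 h (-0.0556 to 0.0369), 0.00584 at 4 days against 6 h (-0.0455 to 0.0406) and -0.0277 at 4 days against 1 day (-0.0439 to 0.0490). Leaving out 1 array gave -0.0127 to 0.0765 and -0.0567 to 0.0143 for Cyp27a1 at 1 day and 4 days against 6 h, and -0.0395 to 0.0381 for Hsd3b7 at 1 day against 6 h.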

Other observations

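The genes that followed Ch25h most closely inside groups differed from those that followed it over all arrays. By the r of deviations from the 6 group means over 22 arrays, the highest were Ankhd1 (0.80), Zfp445 (0.79), Sorcs3 (0.78), Itgb8 (0.78), Pafah1b2 (0.77), Zfp146 (0.77), Ddx3x (0.76) and Lrp6 (0.76). Their celastrol minus DMSO differences were small: Ankhd1 stood at 0.01 at 6 h, 0.00 at 1 day and 0.15 at 4 days. These values have no test, and arrays of a group share their processing.

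Of the other members' promoter windows, that of Hsd3b7 held a STAT site 21 to 13 bases and an NF-kB site 189 to 180 bases before the start, and that of Cyp46a1 a DR4 match with 3 mismatches 212 to 197 bases before the start. That of Abca1 also held a TATA box 29 to 24 bases and an E-box 147 to 142 bases before the start.

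Markers of neighbouring tissue were uneven between arrays. Pituitary markers averaged 7.67 to 8.15 in celastrol and 7.71 to 9.65 in DMSO hypothalamus at 6 h, and 7.64 to 9.36 in celastrol and 7.56 to 8.15 in DMSO hypothalamus at 4 days. Their r with Ch25h over the 22 arrays was 0.09, and their r of deviations 0.39. Over all marker lists the r lay between -0.33 (neurons) and 0.40 (microglia). The r of deviations lay between -0.24 (neutrophils, lymphocytes and red cells) and 0.42 (endothelial cells), with astrocytes at 0.36. These values have no test.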
